A study of Mus musculus with 2 samples.

Results

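The genes Mir219a-1, Mir219a-2 and Mir338 encode miR-219 and miR-338, the miRNAs best known from oligodendrocytes, the cells that myelinate axons in the central nervous system. They were taken by name from the 1973 annotated miRNA genes of the count tables, and all 3 were found. Small RNAs were sequenced from the neural tube of healthy B6NCrl mouse embryos at 13.5 days of gestation, with male and female embryos pooled. There were 2 libraries, labelled biological replicates 1 and 2, from separate tissue samples, and the labels name neither a treatment nor a mutant allele. No other condition was measured, so the comparisons run between the copies, between genes and between the libraries.

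In mouse, oligodendrocyte precursors arise in the ventral neural tube around this stage, while overt myelination comes later. In differentiating oligodendrocytes miR-219 and miR-338 increase, and they are known to repress transcripts that keep precursors dividing or hold back differentiation, among them Pdgfra, Sox6 and Hes5. A miRNA gene is transcribed as a hairpin, and the mature strand cut from it recognises targets through its seed, bases 2 to 8. In mouse 2 genes can make the same miR-219a-5p, whereas miR-338 comes from 1 gene inside Aatk, a gene for a kinase expressed in neurons.

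The mature sequences show which reads could tell the genes apart. They are given 5′ to 3′ from RefSeq (build GRCm38.p6), with the seed in capitals. For Mir219a-2 the RefSeq records used here list no mature strand of the 3′ arm, so that arm is not among the sequences and seeds below.
miR-219a-5p (Mir219a-2 and Mir219a-1): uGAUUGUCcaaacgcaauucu
miR-219a-1-3p (Mir219a-1): aGAGUUGCgucuggacgucccg
miR-338-3p (Mir338): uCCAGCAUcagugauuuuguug
miR-338-5p (Mir338): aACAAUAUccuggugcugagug
The seed of miR-219a-5p was held by no other name among the 1679 mature miRNA names of the RefSeq table, and the same was true of the other 3 seeds. The 21 nt of miR-219a-5p stood in 2 hairpins, Mir219a-1 and Mir219a-2, whereas each of the other 3 mature sequences stood in 1.

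The hairpins of the copies differ outside the 5′ arm. The stretch that both share is in capitals in the first 2 sequences, and both mature arms are in capitals in Mir338.
Mir219a-2: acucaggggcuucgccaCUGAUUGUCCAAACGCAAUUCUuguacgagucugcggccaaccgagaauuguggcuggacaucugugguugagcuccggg
Mir219a-1: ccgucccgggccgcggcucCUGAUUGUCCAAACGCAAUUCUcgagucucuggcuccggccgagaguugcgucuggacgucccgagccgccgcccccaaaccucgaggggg
Mir338: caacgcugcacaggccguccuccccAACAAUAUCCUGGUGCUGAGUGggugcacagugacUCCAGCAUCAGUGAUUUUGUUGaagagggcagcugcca
The shared stretch was 22 nt long, 1 base longer than the mature strand, and began at base 18 of Mir219a-2 and base 20 of Mir219a-1. Over the whole hairpin Mir219a-2 and Mir219a-1 were identical at 72 of 114 aligned positions (63.2%). For comparison, Mir219a-2 and Mir338 matched at 57 of 118 positions (48.3%). The 3′ arm of Mir219a-1 had 7 mismatches in 22 bases at its best ungapped place in Mir219a-2, 2 of them in the seed.

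A read of exactly miR-219a-5p could therefore not be placed on 1 copy, but longer reads could. With 1 templated base added at the 3′ end, or 2 at the 5′ end, the sequence no longer occurred in the other hairpin. Among all stretches of 20 nt, 3 of 78 in Mir219a-2 and 3 of 91 in Mir219a-1 were also found in a hairpin at another place. None of the 79 in Mir338 was. At 23 nt neither Mir219a copy had a shared stretch. Reads that can be placed on 1 copy are thus those of the 3′ arms and 5′ arm reads that run past the shared stretch. The tables do not separate the arms.

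**Figure D1:**
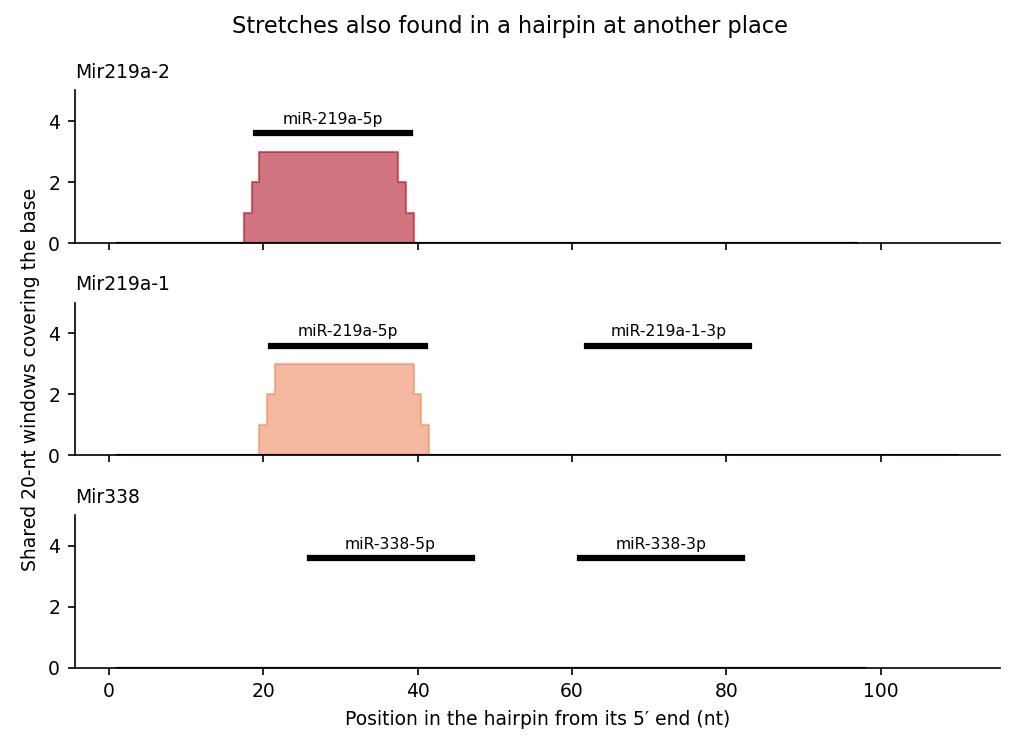
Number of 20-nt stretches covering each base that also occur in a miRNA hairpin at another place (y axis), by position from the 5′ end of the hairpin in nt (x axis), for Mir219a-2, Mir219a-1 and Mir338; black bars mark the mature arms listed in RefSeq. Up to 3 shared stretches cover the miR-219a-5p arm in both copies, and Mir338 has none.

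The copies and Mir338 sit in 3 different settings, given here on GRCm38 from GENCODE M21. Mir219a-2 (ENSMUSG00000065485, chr2:29845631-29845727, minus strand) lay in no annotated gene of its own strand. Urm1, which encodes a ubiquitin-like protein, ends 628 bp away on the opposite strand. Mir219a-1 (ENSMUSG00000065555, chr17:34024983-34025092, minus strand) lay in the major histocompatibility region, 302 bp upstream of Ring1, a Polycomb group gene on the same strand. The gene on its other side, H2-Ke6, was 940 bp away. On its strand only Gm26940, a short non-coding RNA gene at chr17:34024966-34025070, overlapped Mir219a-1. It leaves out the first 22 of the 110 bases of the hairpin and so does not contain it. Mir338 (ENSMUSG00000065600, chr11:120014765-120014862, minus strand) lay in an intron of Aatk on the same strand. In the 3 protein-coding Aatk transcripts that span it, this was intron 7 of 14-exon transcripts, 1724 bp long, with the hairpin 596 bp past the upstream exon.

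**Figure D2:**
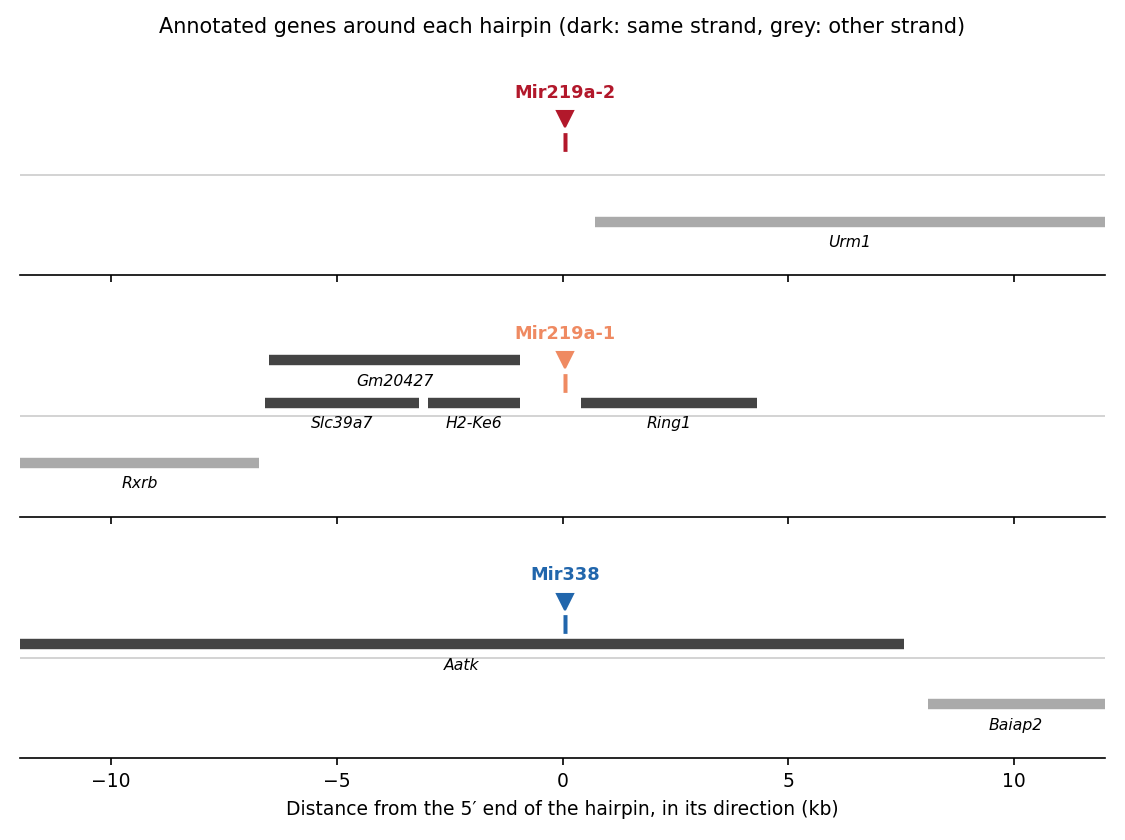
Annotated genes within 12 kb of each hairpin (x axis, kb from the 5′ end of the hairpin in its own direction), dark for the same strand and grey for the other; Gm26940, a pseudogene and the antisense miRNA genes are not drawn. Aatk spans Mir338, Ring1 starts just past Mir219a-1, and Mir219a-2 has no gene on its strand in view.

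A gene is called detected here where it reached 10 counts in both libraries, as 371 miRNA genes did. Of these, 139 (37.5%) lay in an intron of a protein-coding gene of their strand, as Mir338 does, with a median of 86.0 CPM. CPM are same-strand counts scaled to a total of 1000000 over the miRNA genes of a library. Outside any gene of their strand, as Mir219a-2 is, were 115 genes (31.0%), with a median of 109 CPM. Overlapping an exon of a non-coding gene, as Mir219a-1 does in part, were 48 (12.9%), with a median of 118 CPM. The medians of these 3 classes lay close together, while the 3 genes themselves ran from 156 to 2351 CPM.

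Mir219a-2 was by far the highest of the 3 genes. It had 16564 counts in replicate 1 and 13436 in replicate 2, or 2360 and 2341 CPM, a mean of 2351 ± 12.9 CPM (SD, n = 2). The libraries hardly differed for this gene, with a coefficient of variation of 0.548%. The gene ranked 57 of 1973 by mean CPM, above 84.6% of the 371 detected genes.

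Mir338 had 1702 counts in replicate 1 and 1140 in replicate 2, or 242 and 199 CPM, a mean of 221 ± 31.0 CPM (SD, n = 2). It ranked 146 and had the widest spread of the 3, a coefficient of variation of 14.0%. The Wilson 95% intervals for counting error, 231 to 254 CPM in replicate 1 and 187 to 211 CPM in replicate 2, did not overlap.

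Mir219a-1, the second source of miR-219a-5p, had 1143 counts in replicate 1 and 860 in replicate 2, or 163 and 150 CPM. Its mean was 156 ± 9.16 CPM (SD, n = 2), a coefficient of variation of 5.86%, and its rank was 164. Its Wilson 95% intervals, 154 to 173 CPM and 140 to 160 CPM, overlapped. The median level of the 371 detected genes was 95.1 CPM, and the median coefficient of variation 9.80% (quartiles 4.76% and 16.9%). All 3 genes thus stood above the median level, and Mir338 was the only one of them above the median variation.

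**Figure D3:**
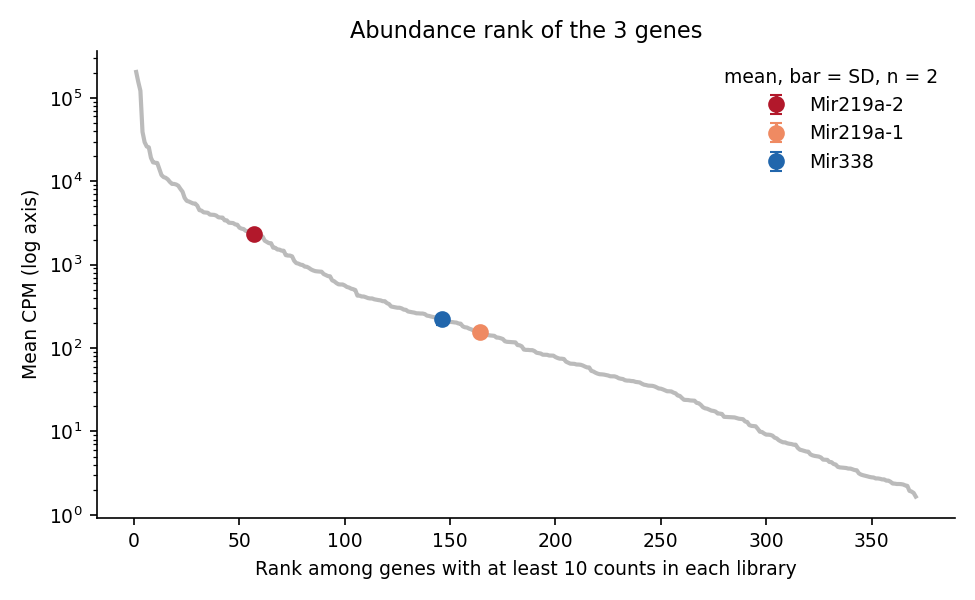
Mean CPM on a log axis (y axis) against abundance rank (x axis) for the 371 detected genes (grey line); points are the 3 genes with their SD over 2 libraries, often smaller than the point. Mir219a-2 stands at rank 57, Mir338 at 146 and Mir219a-1 at 164.

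By counts placed on 1 gene, the order Mir219a-2, Mir338, Mir219a-1 was the same in both libraries. Mir219a-2 exceeded Mir219a-1 14.5-fold in replicate 1 (exact 95% counting interval 13.6 to 15.4) and 15.6-fold in replicate 2 (14.6 to 16.8). The mean log2 ratio was 3.91 ± 0.077 (SD, n = 2), far outside the spread of the libraries. Per base of annotated hairpin, the mean difference was 17.1-fold. Such a division reflects annotated length only and takes no account of where on the hairpin the reads lie. These are counts that could be placed on 1 copy, so the ratio does not describe the shared mature strand.

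Mir219a-2 exceeded Mir338 9.73-fold in replicate 1 (9.26 to 10.2) and 11.8-fold in replicate 2 (11.1 to 12.5). The mean log2 ratio was 3.42 ± 0.20, again larger than the SD. Per base of hairpin, the mean difference was 10.8-fold. Mir338 exceeded Mir219a-1 more narrowly, 1.49-fold in replicate 1 (1.38 to 1.61) and 1.33-fold in replicate 2 (1.21 to 1.45). That mean log2 ratio, 0.49 ± 0.12, was larger than its SD, which rests on 2 values. Per base of hairpin, Mir338 was 1.58-fold higher. Mir338 shares no stretch of 20 nt with another hairpin, whereas reads of exactly miR-219a-5p could not be placed on 1 copy. Both ratios with Mir338 thus compare unlike sets of reads, and the order with these reads included was not measured. No p-value is given for these ratios, since p = 0.5 is the smallest that an exact sign-flip test (two-sided) over 2 libraries allows.

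The 3 genes together held 0.273% ± 0.0053 of the same-strand counts. Of their summed counts, Mir219a-2 made up 85.3% in replicate 1 and 87.0% in replicate 2. Mir338 made up 8.77% and 7.39%, and Mir219a-1 5.89% and 5.57%. Within the copies alone, Mir219a-2 held 93.5% of the counts in replicate 1 (Wilson 95% interval 93.2 to 93.9) and 94.0% in replicate 2 (93.6 to 94.4). The uneven split of the copies was thus nearly equal in both libraries.

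An uneven split was common among miRNAs encoded more than once. RefSeq names gave 19 mature miRNAs shared by 2 genes of the tables whose summed counts reached 100 in each library. The lesser gene of a pair can hold few counts, as Mir9-2 with 9 and 3. The leading gene held a median of 85.9% of the pair's counts, from 51.5% for the Mirlet7c genes to 99.8% for the Mir9 genes, of which 2 were matched. Mir219a stood at 93.8%, and 5 pairs had a higher share, among them Mir194, with Mir194-2 at 98.0%. The Mir138 pair, also tied to oligodendrocytes, was more even, with Mir138-1 at 67.9%. These shares have the same limit as for Mir219a, since reads of the common strand are not assigned to a copy.

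The multimapping class, which holds reads matching several places, had 3921182 reads in replicate 1 and 3310889 in replicate 2. That was 28.5% and 31.0% of all reads, against 17707 and 14296 counts on the 2 Mir219a copies. How many of the multimapping reads are miR-219a-5p was not measured. Same-strand counts on miRNA genes totalled 7019469 and 5738209. In this whole-tissue RNA, fewer cells of a type and less miRNA per cell cannot be told apart. Of the 11 neuronal miRNA genes found in the tables, 8 were detected, against 371 of all 1973. All 3 listed erythroid and all 3 listed mesenchymal genes were detected too, so detection alone is no check of the tissue. Among the neuronal genes Mir137 led at 5096 ± 101 CPM, while Mir124a-1, Mir124a-2 and Mir124a-3 stood at 1.69, 3.52 and 0.071 CPM. Mir9-2 stood at 0.90 CPM, and Mir9-3, with which it shares a mature strand, at 394 CPM. Where copies share a mature strand, these levels have the same limit as those of Mir219a and do not give the level of the miRNA. The whole neuronal list summed to 6765 CPM in replicate 1 and 6948 CPM in replicate 2. The erythroid list summed to 76.1 and 48.3 CPM. Mir126a of endothelial cells stood at 17134 and 16019 CPM. The mesenchymal list summed to 8371 and 10358 CPM, with Mir214 higher in replicate 2 by 0.91 log2 units on the TMM scale used below. Mir206 of skeletal muscle stood at 117 CPM in replicate 1 and 373 CPM in replicate 2, and Mir122 of hepatocytes at 118 and 30.7 CPM. Mir1a-1, the other muscle gene listed, had 3 counts in replicate 1 and 0 in replicate 2. Mir214, Mir206, Mir122 and the erythroid Mir451a thus differed by more than 0.5 log2 units between the libraries. So did 2 of the 8 detected neuronal genes, Mir218-1 at -0.71 and Mir124a-2 at -0.77. Mir126a, the mesenchymal Mir143 and Mir140, the erythroid Mir144 and Mir486, and the other detected neuronal genes differed by less. The part of all these cell types in the levels of the 3 genes and in their differences between the libraries was not tested.

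Between the libraries the 3 genes differed little. Values here are scaled by TMM, which adjusts library sizes for composition, and the difference is replicate 2 minus replicate 1 on the log2 scale. Of the 371 genes, 52 (14.0%) differed by more than 0.5 in either direction, and 0 of the 3 genes did. With 3 genes, such a count is close to that background and says nothing particular about them.

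Mir219a-2 had 2315 TMM-scaled CPM in replicate 2 and 2387 in replicate 1. The log2 difference was -0.045 (exact 95% counting interval -0.078 to -0.012), and 332 of the 371 genes (89.5%) differed by more. With total counts in place of TMM it was -0.011. For Mir219a-1 the TMM-scaled levels were 148 CPM in replicate 2 and 165 CPM in replicate 1. This gave -0.15 on the log2 scale (-0.28 to -0.024). For Mir338 they were 196 CPM in replicate 2 and 245 CPM in replicate 1. This gave -0.32 (-0.43 to -0.21), and 104 genes (28.0%) differed by more. All 3 values were a little lower in replicate 2, most for Mir338. The median absolute difference over all 371 genes was 0.20, and edgeR put the common biological variation at 17.3%. With 1 library on each side these differences have no replicate check.

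**Figure D4:**
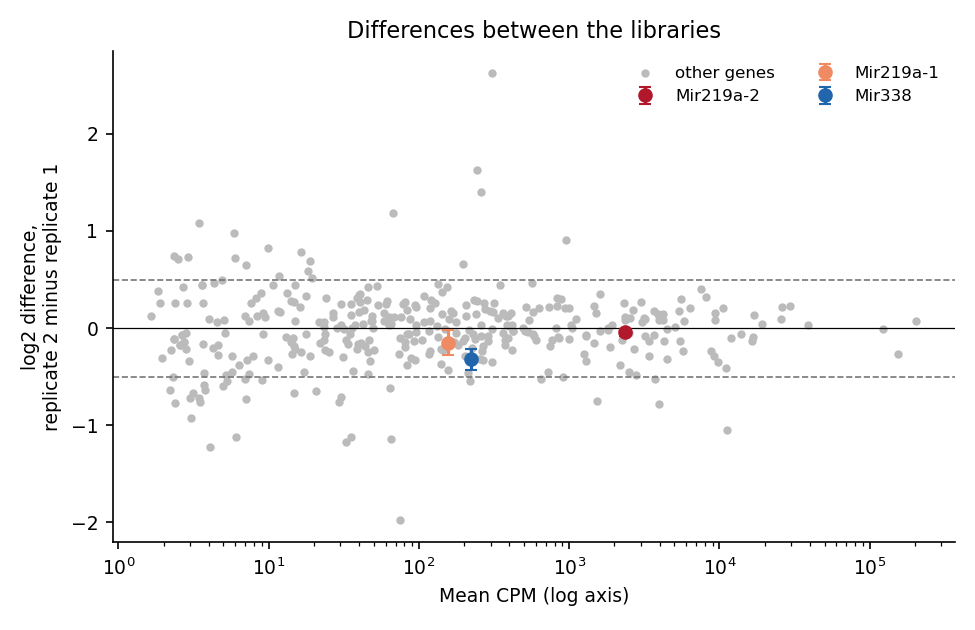
Log2 difference of replicate 2 minus replicate 1 (y axis, TMM scaling) against mean CPM on a log axis (x axis) for 371 genes; coloured points are the 3 genes with exact 95% counting intervals, and dashed lines mark 0.5 log2 units either way. Mir219a-2, Mir219a-1 and Mir338 lie at -0.045, -0.15 and -0.32, inside the dashed lines.

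Other miRNA genes tied to the oligodendrocyte lineage spanned a wide range around the 3 genes. Of 12 such genes, 11 were detected, against 371 of all 1973 genes. Their median was 144 CPM over all 12, the undetected Mir199a-1 included. The median of 95.1 CPM given above covers detected genes only. The lowest was Mir199a-1 with 3 and 14 counts. In 2 of the 12 the level was above that of Mir219a-2, in 5 above Mir338 and in 6 above Mir219a-1. Mir23a, known to favour oligodendrocyte differentiation, stood at 3511 CPM in replicate 1 and 3284 CPM in replicate 2. Mir125a, whose 3′ arm is known to slow oligodendrocyte maturation, stood at 2883 and 2149 CPM. Mir23a was thus above Mir219a-2 in both libraries, and Mir125a in replicate 1 only.

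Mir138-1 and Mir138-2, genes of a miRNA that acts with miR-219 and miR-338 in oligodendrocyte differentiation, lay between them. Mir138-1 averaged 649 ± 156 CPM and Mir138-2 304 ± 47.0 CPM (SD, n = 2 each). Mir138-1 was also the only detected gene of the 12 that differed by more than 0.5 between the libraries, at a log2 difference of -0.53. Mir7-1 and Mir7-2, which encode miR-7a, a miRNA known to favour the formation of precursors, averaged 229 ± 2.70 and 168 ± 15.1 CPM, close to Mir338 and Mir219a-1. Mir32, linked to myelin lipid metabolism, averaged 121 ± 19.0 CPM. Lower still were Mir145a at 73.9 ± 8.58 CPM, Mir27a at 42.5 ± 1.49 CPM, Mir146 at 31.9 ± 0.43 CPM and Mir199a-2 at 17.6 ± 3.17 CPM. Several of these genes share their mature strand with another copy, so their levels have the same limit as those of Mir219a.

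The miR-17-92 genes, which promote the proliferation of oligodendrocyte precursors and of many other cells, were higher as a group. All 6 were detected, against 371 of all 1973 genes, and together held 3.17% of the counts, with a median of 2220 CPM. Mir17 at 19154 ± 661 CPM, Mir20a at 8098 ± 1408 CPM and Mir18 at 3154 ± 204 CPM were above Mir219a-2. Mir92-1 at 1286 ± 21.3 CPM lay between Mir219a-2 and Mir338. Mir19a and Mir19b-1, at 42.9 and 7.40 CPM, were below all 3 genes. The limit of shared mature strands holds for any of these genes with another copy, as for Mir92-1 with Mir92-2.

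**Figure D5:**
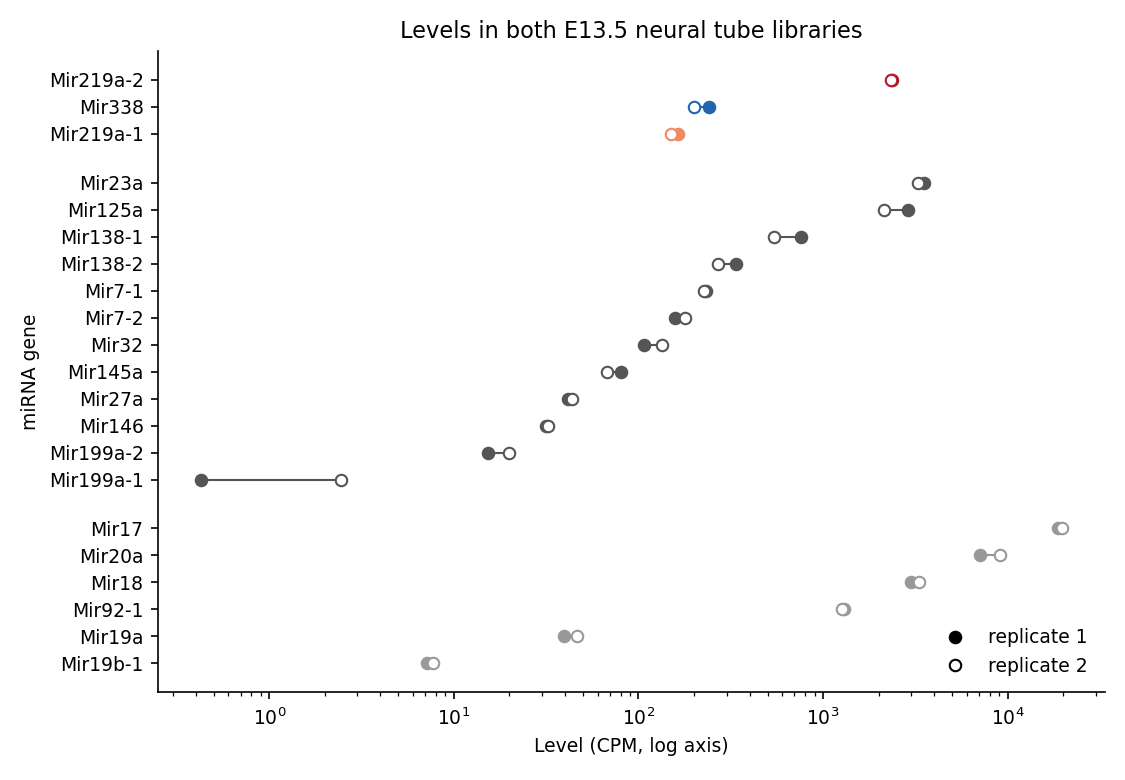
Level in CPM on a log axis (x axis) of each gene (y axis) in replicate 1 (filled) and replicate 2 (open), for the 3 genes on top, 12 other oligodendrocyte-lineage genes in dark grey and 6 miR-17-92 genes in light grey. Mir219a-2 at 2351 CPM stands beside Mir125a at 2516 CPM, and Mir338 and Mir219a-1 stand beside Mir7-1 and Mir7-2.

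By mean log2 CPM over the 2 libraries, the genes nearest to Mir219a-2 were Mir361, Mir98 and Mir872, at 2362, 2343 and 2304 CPM. Nearest to Mir338 were Mir485, Mir16-2 and Mirlet7c-1, at 217, 218 and 225 CPM. Nearest to Mir219a-1 were Mir667, Mir195a and Mir496a, at 157, 159 and 155 CPM. The widest of these gaps, Mir872 minus Mir219a-2, was -0.036 log2 units, while Mir872 itself differed by 0.26 between the libraries.

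The seeds can be set beside the transcripts they are known to act on, although mRNA was not measured here. The match to bases 2 to 8 of miR-219a-5p is GACAATC, and that of miR-338-3p is ATGCTGG. They were sought in the sense strand of the longest annotated 3′ untranslated region of each gene. For miR-219a-5p, 4 of 8 genes taken from earlier oligodendrocyte work held the match, namely Pdgfra, Sox6, Zbtb18 and Foxj3. Of 21020 genes with such a region 4.80% did. These 4 are also the listed genes with regions of 2500 to 6500 nt, and of all 3555 genes with regions of that length 10.9% held the match. For miR-338-3p, Sox6, Zbtb18, Neurod1 and Fgfr2 held the match, against 13.1% of all genes. Of the 4 listed genes with the longer regions 2 held it, against 29.8% of the 3555. The 8 genes were listed because earlier work named them as targets, so their shares beside all genes are no independent support. Sox6 held 2 matches for miR-219a-5p and 3 for miR-338-3p in 6046 nt.

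The first match in each of 3 regulators of precursor state shows the seed site in its context (GRCm38, transcript strand, match in capitals). Pdgfra encodes the receptor for the growth factor that drives precursor division, Sox6 a transcription factor that holds back differentiation, and Foxj3 a forkhead factor.
Pdgfra, miR-219a-5p, chr5:75197698-75197724, plus strand: ttctatttttatgatGACAATCaaagc
Foxj3, miR-219a-5p, chr4:119626506-119626532, plus strand: taaattcctttcgaaGACAATCagaga
Sox6, miR-219a-5p, chr7:115476280-115476306, minus strand: cactgcaaagtcttaGACAATCtttga
Sox6, miR-338-3p, chr7:115473021-115473047, minus strand: tgttccacttgtcaaATGCTGGcctcc
Hes5 held neither match in its 696 nt. A match is a description of sequence and was not tested against any measurement.

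In length and GC content the hairpin of Mir219a-1 stood apart from those of Mir219a-2 and Mir338, which were alike. Mir219a-2, Mir219a-1 and Mir338 were 97, 110 and 98 nt long, with a GC content of 55.7%, 69.1% and 56.1%. The median over the 320 detected genes with a RefSeq hairpin was 50%, and 309 of them were below Mir219a-1. The predicted folding energies were -48.2, -58.7 and -41.9 kcal/mol, lowest for Mir219a-1.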

How the data were processed

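Small RNA libraries of 2 biological replicates of mouse neural tube were analysed. Per gene, the deposited tables give raw counts in 3 columns, unstranded, same strand and opposite strand, on mm10 with annotation M4 per the deposited notes; the aligner is not given in the sources used here. The strand of each column, and that multimapping reads are in no gene's count, were inferred from the values. CPM were computed from the same-strand column over 1973 genes, of which 1894 were named by GENCODE M21. Replicate differences used a pseudocount of 0.5 and TMM factors (edgeR 4.0.16, R 4.3.3) over genes that reached 10 counts in both libraries, and were tested on simulated data. Intervals cover counting error only, as reads that carry no molecular identifier may be copies of 1 molecule. Sequences came from RefSeq and were compared with biopython 1.88 and ViennaRNA 2.7.2; a genome sequence was not used here, so shared stretches were sought among RefSeq hairpins only. The 3 genes and all lists were chosen with earlier results of these data known. Named are the 3 genes, listed lineage genes and the 3 genes nearest to each in mean log2 CPM. The pairs of copies, the GC content, the folding energies and the long untranslated regions were added after seeing the data. Alternatives were other scalings (among them DESeq2 1.42.0 size factors), totals, columns, pseudocounts and count minimums, and each replicate left out.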

Additional observations from a re-analysis of the deposited data

Results flagged for a closer look

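The opposite-strand column held 11 counts on Mir219a-1, 6 in replicate 1 and 5 in replicate 2, above the 3 counts that a count of 0 allows in each library. This column was used in no comparison of levels. On the opposite strand GENCODE M21 annotates Mir219c at this place, which is not in the count tables. The opposite-strand counts made up 0.546% of all counts on Mir219a-1, and 11 of the 371 detected genes had a higher percentage. On Mir338, with Mir3065 on its other strand, there were 3 and 1 counts, and on Mir219a-2, with Mir219b on its other strand, 0 and 3 counts. Any opposite-strand count was found on 32 of the 371 genes.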

How the results depend on the processing

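Apart from the count of genes that differed between the libraries, 71 values were recomputed under other settings. Of these, 56 moved by no more than the spread of the main value. No log2 ratio or replicate difference changed its sign, and the other values cannot be negative. Leaving out 1 of 2 libraries always moves their mean by less than their SD. For levels, ratios and the share, those settings are among the 56 by construction and say nothing on stability. With the most abundant gene left out of the total, Mir219a-2 stood at 2955 CPM, Mir219a-1 at 197 CPM and Mir338 at 277 CPM, and the 3 genes held 0.343% of the counts. Over all reads of a library they stood at 1232, 81.8 and 115 CPM. Both follow from the other denominators. In the unstranded column Mir219a-2 stood at 2317 CPM. Its rank there was 60 instead of 57, that of Mir219a-1 173 instead of 164 and that of Mir338 153 instead of 146. In replicate 2 alone Mir219a-2 ranked 58. With total counts in place of TMM the replicate difference of Mir219a-2 was -0.011, that of Mir219a-1 -0.12 and that of Mir338 -0.29. This follows from the other library sizes, which shift every gene alike. Per hairpin length, chosen after seeing the data, the log2 ratio was 4.09 for Mir219a-2 over Mir219a-1 and 0.66 for Mir338 over Mir219a-1, which follows from the longer Mir219a-1. Without 1 replicate, the levels ranged from 2341 to 2360 CPM for Mir219a-2, 150 to 163 CPM for Mir219a-1 and 199 to 242 CPM for Mir338. The ratio of Mir338 to Mir219a-1, the narrowest, ranged from 0.41 to 0.57. With a minimum of 100 counts in both libraries, 22 of 273 genes (8.06%) differed by more than 0.5 between the libraries, against 52 of 371. That count was 49 with total counts and 54 in the unstranded column. Allowing 1 mismatch, 4 stretches of 22 nt were shared between the Mir219a copies instead of 1. The search for exact copies in the whole genome was not run. No paired analysis was possible because there is 1 group. With 2 libraries the SDs are poorly known, and the unassigned multimapping reads limit the counts on the Mir219a copies.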
